A study of Homo sapiens with 9 samples.

Results

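Kinesins are motor proteins that walk on microtubules or shorten them, using ATP. Of the 58387 rows of the deposited gene table, 39 were kinesin genes by symbol (KIF followed by a number, with an optional letter and digit and no pseudogenes), and 32 of these were among the 16600 genes that passed the filter on low counts. The 39 were divided by known role into 13 mitotic kinesins, 15 transport kinesins and 11 others, mostly motors of cilia and centrioles and kinesins of mixed or less studied function.

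RNA-seq was done on MM1S, an established human multiple myeloma line, in 3 groups of libraries that follow the loss and return of PHF19, an accessory subunit of Polycomb repressive complex 2. KD_Rescued (n = 2) carried the shRNA against PHF19 together with shRNA-resistant PHF19. PHF19_KD (n = 3) carried the shRNA alone, and shEV (n = 3) carried an empty lentiviral vector. All cells were grown in the same medium with serum. Whether the lines were clones, or the replicates separate cultures, is not in the labels, and the names of the 3 PHF19_KD libraries begin alike. The p-values therefore cover only variation among these libraries, possibly technical. The labels of 1 further library contradict each other, and it entered no comparison.

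In a dividing cell, mitotic kinesins push the spindle poles apart, shorten microtubule ends, hold chromosome arms and bundle the central spindle for cytokinesis, and their RNAs are known to be made mostly late in the cell cycle. Transport kinesins carry vesicles, organelles and ciliary cargo along microtubules and are needed in cells that do not divide as well. A plasma cell tumour line that proliferates in culture needs both kinds.

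PHF19 followed its labels, with 219.7 and 217 CPM (the read count relative to normalised library size) in the KD_Rescued libraries, 25.9, 27.5 and 27.3 CPM in PHF19_KD and 123, 123 and 103 CPM in shEV. Its KD_Rescued mean was 188% of the shEV mean, so PHF19 returned to above the control level. Libraries held 23644123 to 23751353 counts in KD_Rescued, 10609798 to 12024913 in PHF19_KD and 16974728 to 22739741 in shEV. Mitochondrially encoded RNA took 4.99% to 5.18% of counts in KD_Rescued, 9.02% to 10.0% in PHF19_KD and 2.84% to 3.32% in shEV. Without the mitochondrially encoded genes every mitotic kinesin call was kept in all 3 comparisons. The call of KIF3A in PHF19_KD against shEV was then lost (adjusted p = 0.0911), and KIF1B in that comparison and KIF16B in KD_Rescued against shEV were called (adjusted p = 0.0206 and 0.0348). All 8 plasma cell markers in the table passed the filter, with sums of 9342 to 9374 CPM in KD_Rescued, 6617 to 6803 CPM in PHF19_KD and 10196 to 11265 CPM in shEV. IGJ was the largest part of each sum, with means of 5665, 2793 and 6658 CPM in KD_Rescued, PHF19_KD and shEV. In PHF19_KD against shEV 4 of the 8 markers fell and 3 rose, where 34.2% of all genes fell and 34.9% rose. IGJ was at 42.0% and TNFRSF17 at 47.6% of the shEV mean, and SDC1 was at 151%, XBP1 at 110% and CD38 at 224%. Of 7 T and NK cell, 6 monocyte, 5 epithelial and 6 fibroblast markers, 2, 2, 1 and 2 passed the filter, with CD3D, NKG7, FCGR3A, KRT19 and THY1 at 0 throughout. Their summed levels lay between 3.13 and 5.20 CPM for T and NK cells and between 0.271 and 1.32 CPM for epithelial cells. Monocyte markers summed to 9.67 to 10.4 CPM in KD_Rescued, 26.5 to 31.2 CPM in PHF19_KD and 20.3 to 23.1 CPM in shEV. Fibroblast markers summed to 0.955 to 1.54 CPM in KD_Rescued, 9.88 to 10.6 CPM in PHF19_KD and 2.53 to 2.78 CPM in shEV. Of 6 erythroid markers 2 passed, and the sum was 59.3 to 61.1 CPM in KD_Rescued, 12.3 to 14.1 CPM in PHF19_KD and 51.3 to 53.4 CPM in shEV, most of it HBD with means of 52.5, 11.0 and 46.1 CPM in KD_Rescued, PHF19_KD and shEV. The part of these markers in the results was not tested. Among replicates, shEV replicate 3 stood apart, with a chi-square per degree of freedom of 8.14 and 9.15 against the other shEV libraries, where all other pairs within a group gave 1.37 to 2.25. The library names put both KD_Rescued libraries in a different lane from all others, and the effects of lane and of rescue cannot be told apart.

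Promoters were searched for words of cell cycle control. Many late cell cycle genes carry a cell cycle homology region (CHR, searched as TTTGAA or TTCGAA) near the transcription start, often with an upstream CCAAT box (searched as CCAAT), both on either strand. RefSeq promoters (GRCh38.p14, 250 bases before to 50 after each start) were found for 33 of the 39 kinesins. KIF5A, KIF13B, KIF21B, KIF19, KIF26B and KIF27 had no entry. A CHR word lay in 10 of 13 mitotic kinesin genes, in 1 of 12 transport kinesin genes (KIF5B) and in 1 of 8 others (KIF24), against 19.5% of the 27305 genes of the table. Both words in the same promoter were found in 9 of 13 mitotic genes, in 1 of 12 transport genes and in 1 of 8 others, against 7.85% of all genes. The transport gene was KIF5B, where the CHR word at position -140 lies upstream of the CCAAT box at position -59. The CCAAT box, with or without a CHR word, was in 10 of 13 mitotic genes, 4 of 12 transport genes and 3 of 8 others, against 39.7% of all genes. An E2F-type word (TTTCGCGC, TTTGGCGC, TTTCCCGC or TTTGCCGC) was present in 1 of 13 mitotic genes (KIF15), 0 of 12 transport genes and 1 of 8 others (KIF25), against 3.99% of all genes. No word of a member overlapped one of another motif. These are matches of letters and not sites shown to be bound.

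The windows printed here run from 120 bases before to 30 after the start, on the gene's own strand, with CHR and CCAAT words in capitals. They show 5 mitotic kinesins with both words, the centriolar kinesin KIF24 that also has both, and 2 genes with neither, the mitotic KIF2C and the transport kinesin KIF21A.
KIF11, chr10:92593010-92593159, plus strand: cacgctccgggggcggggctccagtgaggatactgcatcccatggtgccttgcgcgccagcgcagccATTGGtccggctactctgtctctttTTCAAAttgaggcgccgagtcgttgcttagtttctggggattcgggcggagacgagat
KIF4A, chrX:70289984-70290133, plus strand: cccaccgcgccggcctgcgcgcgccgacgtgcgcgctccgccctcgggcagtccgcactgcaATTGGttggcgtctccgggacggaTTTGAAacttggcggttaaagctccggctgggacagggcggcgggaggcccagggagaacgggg
KIF4B, chr5:155013635-155013784, plus strand: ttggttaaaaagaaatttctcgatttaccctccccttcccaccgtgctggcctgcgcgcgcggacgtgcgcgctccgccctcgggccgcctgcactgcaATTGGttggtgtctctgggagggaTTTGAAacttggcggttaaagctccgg
KIF18B, chr17:44947744-44947893, minus strand: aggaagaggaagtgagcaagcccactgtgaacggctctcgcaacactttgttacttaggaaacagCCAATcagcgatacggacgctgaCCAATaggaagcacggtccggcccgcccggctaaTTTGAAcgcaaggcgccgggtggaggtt
KIF22, chr16:29790631-29790780, plus strand: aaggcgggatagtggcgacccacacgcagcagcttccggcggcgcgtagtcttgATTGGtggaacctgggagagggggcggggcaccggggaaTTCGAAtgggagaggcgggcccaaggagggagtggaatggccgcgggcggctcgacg
KIF24, chr9:34329239-34329388, minus strand: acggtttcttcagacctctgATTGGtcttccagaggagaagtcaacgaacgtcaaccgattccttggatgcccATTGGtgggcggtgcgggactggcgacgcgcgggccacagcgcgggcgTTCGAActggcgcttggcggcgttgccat
KIF2C, chr1:44739717-44739866, plus strand: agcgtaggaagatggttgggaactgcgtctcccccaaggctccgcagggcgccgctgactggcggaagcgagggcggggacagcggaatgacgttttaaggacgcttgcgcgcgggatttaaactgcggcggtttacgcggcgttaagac
KIF21A, chr12:39443091-39443240, minus strand: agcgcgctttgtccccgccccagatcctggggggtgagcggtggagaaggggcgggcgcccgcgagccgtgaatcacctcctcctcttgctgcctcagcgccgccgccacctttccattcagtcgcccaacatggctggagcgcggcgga

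In KIF11, KIF4A, KIF4B and KIF14 the first letters of the CCAAT box and of the CHR word stood 25, 24, 24 and 23 bases apart. The distance was 34 bases in KIF18B, 35 in KIF18A, 39 in KIF22, 48 in KIF24 and 9 in KIF23. KIF20B had its CHR words at positions 25 and 31 after the start and its nearest CCAAT box at position -98. KIF15 had a CHR word without a CCAAT box, and KIF20A had a pair of CCAAT boxes without a CHR word. The promoter of KIF4B, an intronless copy of KIF4A, shared an unbroken run of at least 50 bases with that of KIF4A. This run begins at position -37 in KIF4A and at position 1 in KIF4B and holds the CHR word. It reaches the last base searched in KIF4B, so 50 bases is a minimum.

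**Figure D1:**
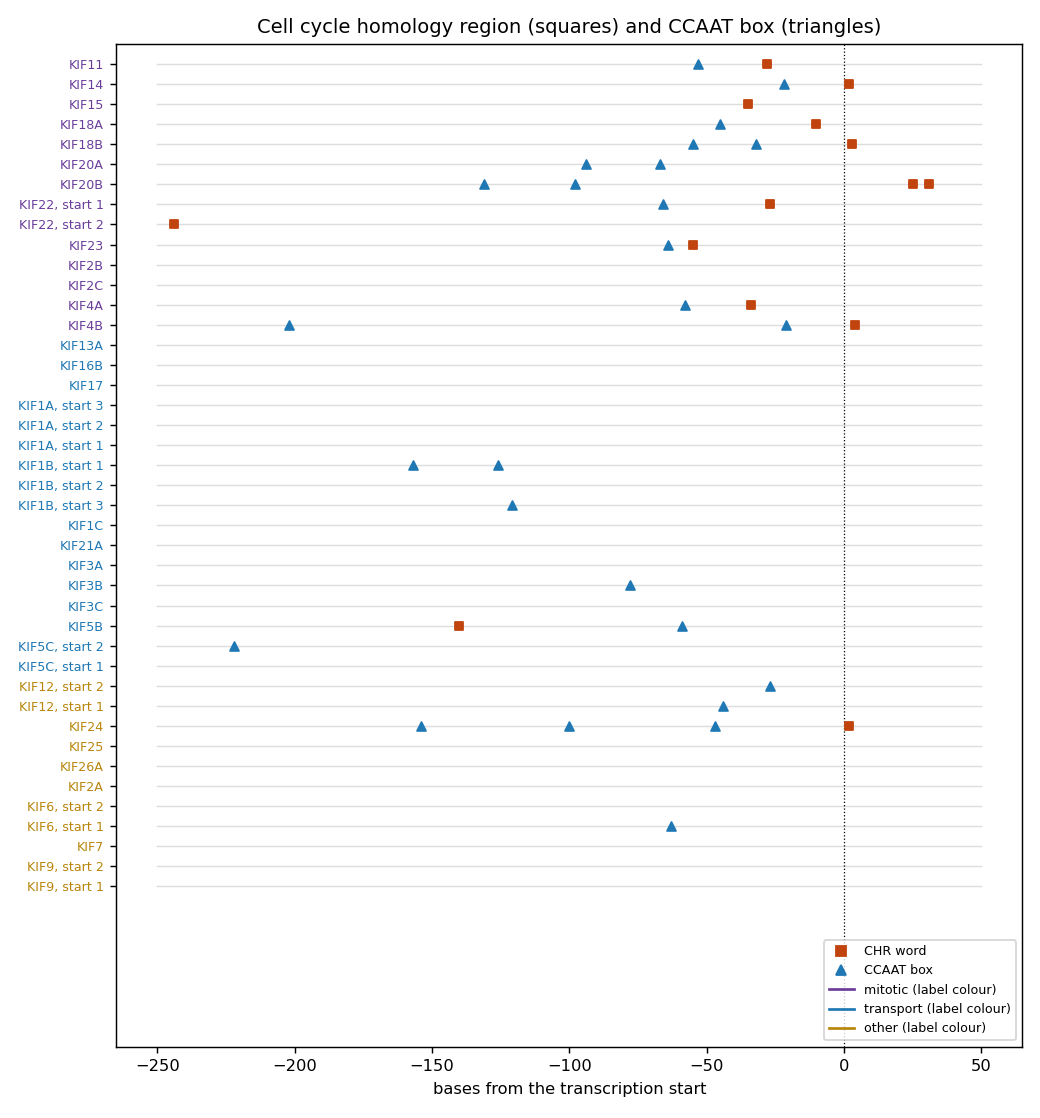
Positions of the CHR words (squares) and CCAAT boxes (triangles) in bases from the transcription start (dotted line) in the RefSeq promoters of 33 kinesins, with 1 row for each annotated start and label colours for the class. Among the 10 mitotic genes with a CHR word, most have it within about 50 bases of a start with a CCAAT box to its left, a pair that KIF24 also shows.

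The first comparison, PHF19_KD against shEV, asked what loss of PHF19 changed. All 12 mitotic kinesins that passed the filter fell, each by at least 2-fold, with log2 fold changes from -3.19 to -2.27 and a median of -2.95. In the same test 34.2% of all 16600 genes fell, 10.1% fell at least 2-fold, and the median over all genes was 0.03 (quasi-likelihood test of edgeR, with p adjusted by Benjamini-Hochberg over all genes and a threshold of 0.05). Transport kinesins went both ways. Of 13 that passed the filter, 5 fell, 6 rose and 2 were not called, where 34.9% of all genes rose. Their median was 0.15, but -0.21 without the filter and -0.025 with a filter at 5 CPM. Among the 7 others, 2 fell and 4 rose, with a median of 0.80, but -0.96 with a filter at 5 CPM. The summed level of the mitotic kinesins was 119, 112 and 115 CPM in PHF19_KD against 786, 777 and 824 CPM in shEV, and that of the transport kinesins was 607, 570 and 585 CPM in PHF19_KD against 744, 722 and 694 CPM in shEV. The ratio of the mitotic to the transport sum (SD, n = 3) was 0.196 ± 0.000859 for PHF19_KD, against 1.11 ± 0.0693 for shEV. Beside this, 8 proliferation markers, among them MKI67 and TOP2A, all fell, with sums of 225 to 249 CPM in PHF19_KD and 2037 to 2119 CPM in shEV, and their part in the result was not tested. In bulk RNA, fewer cells in mitosis and less kinesin RNA per cell cannot be told apart.

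**Figure D2:**
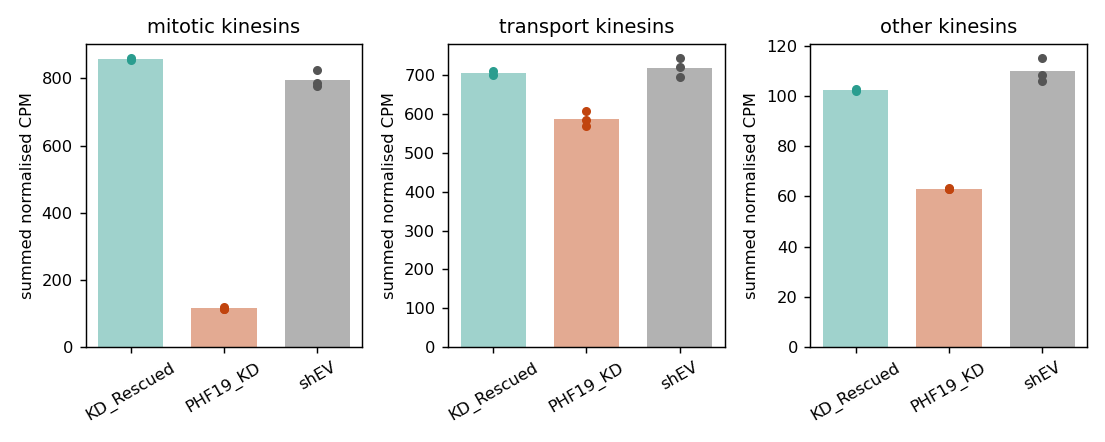
Summed normalised CPM of the 13 mitotic, 15 transport and 11 other kinesins, with a point per library and a bar at the group mean (KD_Rescued n = 2, PHF19_KD n = 3, shEV n = 3). The mitotic sum lies between 112 and 119 CPM in PHF19_KD, far under the 777 to 824 CPM of shEV, whereas the transport sums lie between 570 and 607 CPM in PHF19_KD and between 694 and 744 CPM in shEV.

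Motors that build and hold the bipolar spindle fell. KIF11, which slides antiparallel microtubules apart and is the target of spindle inhibitors, had 130.3 and 129 CPM in the KD_Rescued libraries, 25.9, 25.6 and 23.6 CPM in PHF19_KD and 179, 184 and 202 CPM in shEV. Every PHF19_KD library was below every other, and the shEV libraries were the highest, without overlap. Its log2 fold change was -2.91 ± 0.06 (SE, adjusted p = 4.12e-12) in PHF19_KD against shEV. KIF15, which can sustain a bipolar spindle beside KIF11, had 51.7 and 49.4 CPM in the KD_Rescued libraries, 4.83, 5.21 and 5.28 CPM in PHF19_KD and 41.1, 39.3 and 44.0 CPM in shEV. Here KD_Rescued was highest, and no groups overlapped. The change in PHF19_KD was -3.02 ± 0.09 (SE, adjusted p = 3.60e-11).

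Kinesins that shorten or cap microtubule ends fell as well. KIF2C, the centromeric depolymerase that frees wrongly attached kinetochores, had 86.3 and 87.7 CPM in the KD_Rescued libraries, 11.7, 10.00 and 10.2 CPM in PHF19_KD and 85.6, 83.7 and 84.5 CPM in shEV. PHF19_KD stood apart and KD_Rescued lay just above the shEV range. The log2 fold change was -2.99 ± 0.07 (SE, adjusted p = 4.60e-12) and its counts were not whole in any of the 9 libraries. KIF2C also overlaps an antisense gene on the opposite strand. KIF18A, which dampens chromosome movements at the metaphase plate, had 26.5 and 26.2 CPM in the KD_Rescued libraries, 5.11, 4.79 and 3.64 CPM in PHF19_KD and 25.5, 23.9 and 29.9 CPM in shEV, and KD_Rescued lay inside the shEV range. It changed by -2.55 ± 0.13 (SE, adjusted p = 4.78e-09). KIF18B, which limits astral microtubules together with KIF2C, had 92.5 and 93.9 CPM in the KD_Rescued libraries, 6.69, 6.44 and 6.41 CPM in PHF19_KD and 58.1, 55.3 and 50.5 CPM in shEV. All 3 groups were separate, KD_Rescued being the highest, and the change was -3.07 ± 0.08 (SE, adjusted p = 2.35e-11). KIF2B, a further mitotic depolymerase, had 0 counts in every library.

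The chromokinesins, which bind chromosome arms, showed the same direction. KIF22, which pushes arms toward the spindle equator, had 135 and 139 CPM in the KD_Rescued libraries, 19.0, 20.7 and 20.7 CPM in PHF19_KD and 109, 113 and 97.4 CPM in shEV. Its PHF19_KD libraries were lowest and its KD_Rescued libraries highest, and the log2 fold change was -2.40 ± 0.07 (SE, adjusted p = 4.17e-11). KIF4A, which also sets the length of the central spindle with PRC1, had 65.8 and 69.0 CPM in the KD_Rescued libraries, 9.20, 8.18 and 8.40 CPM in PHF19_KD and 63.8, 64.9 and 71.8 CPM in shEV, with KD_Rescued inside the shEV range. It changed by -2.96 ± 0.08 (SE, adjusted p = 2.39e-11). KIF4B had 0.955 and 1.00 CPM in the KD_Rescued libraries, 0.0929, 0.0826 and 0.0866 CPM in PHF19_KD and 0.768, 0.808 and 0.766 CPM in shEV. Its level was near 1 count in each PHF19_KD library, its counts were not whole in any of the 9 libraries, and reads of KIF4A and KIF4B are hard to separate, so its change of -3.06 ± 0.48 (SE, adjusted p = 1.10e-04) is uncertain. Counts of KIF4A and KIF22 were also not whole, in 9 and 8 of 9 libraries. The gene models of KIF22 and KIF4A overlap genes on the opposite strand in GENCODE 29, an antisense RNA and PDZD11, and the strand setting of the counts is not given in the sources used here.

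Kinesins of the central spindle and midbody completed the class. KIF23, the motor of the centralspindlin complex with RACGAP1, had 64.0 and 64.7 CPM in the KD_Rescued libraries, 5.67, 5.78 and 6.24 CPM in PHF19_KD and 52.4, 53.0 and 56.2 CPM in shEV. Its log2 fold change was -3.19 ± 0.07 (SE, adjusted p = 7.60e-12), the lowest value of the class. KIF20A, which brings the chromosomal passenger complex to the midzone, had 60.2 and 59.5 CPM in the KD_Rescued libraries, 7.62, 7.52 and 8.92 CPM in PHF19_KD and 36.7, 39.0 and 40.5 CPM in shEV. PHF19_KD retained 20.7% of the shEV mean, the highest share among the mitotic kinesins, with a change of -2.27 ± 0.08 (SE, adjusted p = 2.81e-10). KIF20B, which acts in late cytokinesis, had 65.4 and 65.1 CPM in the KD_Rescued libraries, 10.1, 8.43 and 10.3 CPM in PHF19_KD and 70.6, 68.6 and 81.7 CPM in shEV, and its change was -2.94 ± 0.10 (SE, adjusted p = 1.03e-10). KIF14, a midbody kinesin that works with citron kinase, had 76.4 and 74.8 CPM in the KD_Rescued libraries, 12.7, 9.67 and 10.7 CPM in PHF19_KD and 63.1, 51.8 and 64.3 CPM in shEV. Its PHF19_KD libraries lay below all others without overlap, and it changed by -2.44 ± 0.11 (SE, adjusted p = 4.54e-09). KIF20A, KIF18A and KIF23 overlap genes on the opposite strand, and counts of KIF23 and KIF20A were not whole in 5 and 6 of 9 libraries.

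**Figure D3:**
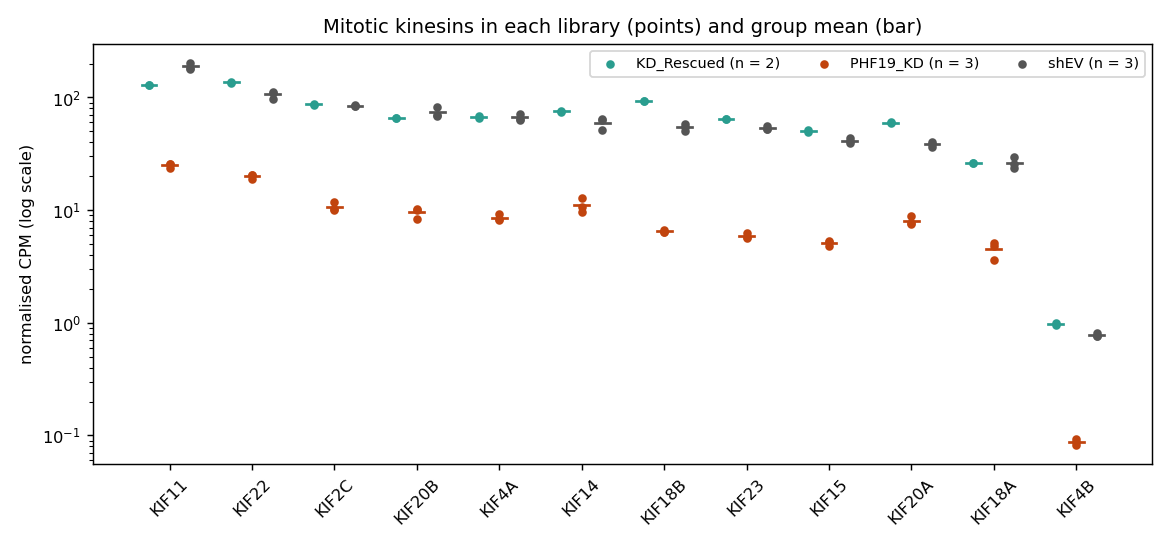
Normalised CPM (log scale) of the 12 mitotic kinesins that passed the filter, with a point per library and a short bar at the group mean, ordered by level in shEV. In each gene the 3 PHF19_KD points lie below all others, and for KIF11 the 2 KD_Rescued points lie under those of shEV while for KIF18B and KIF20A they lie above them. The share of all genes tested with PHF19_KD separate in this way was not computed.

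Cargo motors changed less and in both directions. KIF21B, a kinesin of lymphocytes and neurons that restrains microtubule growth, had 259 and 259 CPM in the KD_Rescued libraries, 146, 133 and 133 CPM in PHF19_KD and 247, 238 and 196 CPM in shEV. Its change in PHF19_KD was -0.73 ± 0.08 (SE, adjusted p = 1.38e-05). KIF21A, its paralog, had 77.8 and 74.4 CPM in the KD_Rescued libraries, 32.1, 26.5 and 28.2 CPM in PHF19_KD and 69.9, 68.3 and 72.1 CPM in shEV. It fell by more than any other transport kinesin tested, at -1.28 ± 0.07 (SE, adjusted p = 7.78e-09), and all 3 PHF19_KD libraries lay under the rest. KIF5B, the widely expressed heavy chain of conventional kinesin, had 105 and 104 CPM in the KD_Rescued libraries, 79.3, 76.3 and 74.7 CPM in PHF19_KD and 114, 106 and 120.1 CPM in shEV. It too fell, with a log2 fold change of -0.56 ± 0.05 (SE, adjusted p = 1.51e-06). KIF1C, which moves vesicles toward the cell edge, changed by -0.48 ± 0.06 (SE, adjusted p = 1.77e-05). KIF16B, a motor of early endosomes, was called at -0.20 ± 0.08 (SE, adjusted p = 0.0361), and that call was lost with upper-quartile scaling (-0.04, adjusted p = 0.667). DESeq2 and a filter at 5 CPM did not call KIF16B either (adjusted p = 0.160 and 0.255).

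The rises among transport kinesins were led by KIF5A, a heavy chain known mainly from neurons, with 1.74 and 2.21 CPM in the KD_Rescued libraries, 6.88, 6.53 and 6.84 CPM in PHF19_KD and 2.48, 1.62 and 1.94 CPM in shEV. The PHF19_KD libraries were the highest and the other groups overlapped. The log2 fold change was 1.73 ± 0.18 (SE, adjusted p = 3.57e-06). KIF3C, KIF13A and KIF13B, motors of vesicles and endosomes, changed by 0.92 ± 0.09, 0.77 ± 0.15 and 0.67 ± 0.06 on the log2 scale (SE, adjusted p = 1.97e-06, 6.21e-04 and 1.49e-06). KIF3B and KIF3A, which form the motor pair of intraflagellar transport, changed by 0.28 ± 0.05 and 0.19 ± 0.08 (SE, adjusted p = 3.48e-04 and 0.0467). The call of KIF3A was near the threshold and was lost when any library except shEV replicate 3 was left out (adjusted p from 0.0548 to 0.136). It was also lost with RLE scaling, with DESeq2 and without a filter (adjusted p = 0.0613, 0.154 and 0.400). Without PHF19_KD replicate 1, PHF19_KD replicate 2, shEV replicate 1 or shEV replicate 3 the call of KIF16B was lost as well (adjusted p = 0.0807, 0.129, 0.0677 and 0.0745). KIF1B, which carries mitochondria and synaptic vesicle precursors, and KIF5C were not called, at -0.12 ± 0.05 and 0.15 ± 0.20 (SE, adjusted p = 0.0584 and 0.523), although KIF1B was called without shEV replicate 3 (adjusted p = 0.0417). KIF17 and KIF1A held 3 and 6 counts over all 8 libraries and were not tested.

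Of the 7 kinesins outside both classes that were tested, those of the spindle pole and centriole fell. KIF2A, a depolymerase at spindle poles and in neurites, had 71.1 and 71.1 CPM in the KD_Rescued libraries, 41.8, 42.1 and 44.1 CPM in PHF19_KD and 85.6, 87.2 and 94.1 CPM in shEV, and changed by -1.06 ± 0.05 (SE, adjusted p = 5.97e-09). It overlaps IPO11 on the same strand. KIF24, which restrains cilium formation at the mother centriole, had 18.7 and 17.0 CPM in the KD_Rescued libraries, 2.88, 3.80 and 2.86 CPM in PHF19_KD and 11.6, 12.3 and 12.2 CPM in shEV. All 3 groups were separate and its log2 fold change was -1.91 ± 0.12 (SE, adjusted p = 4.97e-08), with the gene overlapping UBAP1 on the opposite strand.

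Among ciliary and atypical kinesins, 4 rose. KIF27, a paralog of the ciliary Hedgehog regulator KIF7, had 6.36 and 7.42 CPM in the KD_Rescued libraries, 10.2, 9.58 and 8.14 CPM in PHF19_KD and 3.97, 4.09 and 4.01 CPM in shEV, and changed by 1.21 ± 0.13 (SE, adjusted p = 3.59e-06). KIF6, linked to motile cilia, had 1.58 and 1.33 CPM in the KD_Rescued libraries, 1.30, 1.16 and 1.21 CPM in PHF19_KD and 0.271, 0.354 and 0.236 CPM in shEV. Only shEV was low for this gene, with 4 to 7 counts a library, and the change was 2.06 ± 0.33 (SE, adjusted p = 1.47e-04). KIF26B, an atypical kinesin studied in kidney development, had 0.291 and 0.500 CPM in the KD_Rescued libraries, 1.49, 1.98 and 1.82 CPM in PHF19_KD and 0.406, 0.404 and 0.177 CPM in shEV, and its PHF19_KD libraries were the highest, at 2.37 ± 0.38 (SE, adjusted p = 1.45e-04). KIF7 itself was called at 0.80 ± 0.26 (SE, adjusted p = 0.0165), a call lost without PHF19_KD replicate 3 or shEV replicate 2 (adjusted p = 0.0701 and 0.0626) and with DESeq2 (adjusted p = 0.0885). KIF9 was not called (-0.10 ± 0.19, SE, adjusted p = 0.654), and it overlaps its antisense gene. KIF19, KIF25, KIF26A and KIF12 held 5, 5, 6 and 0 counts over all 8 libraries.

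**Figure D4:**
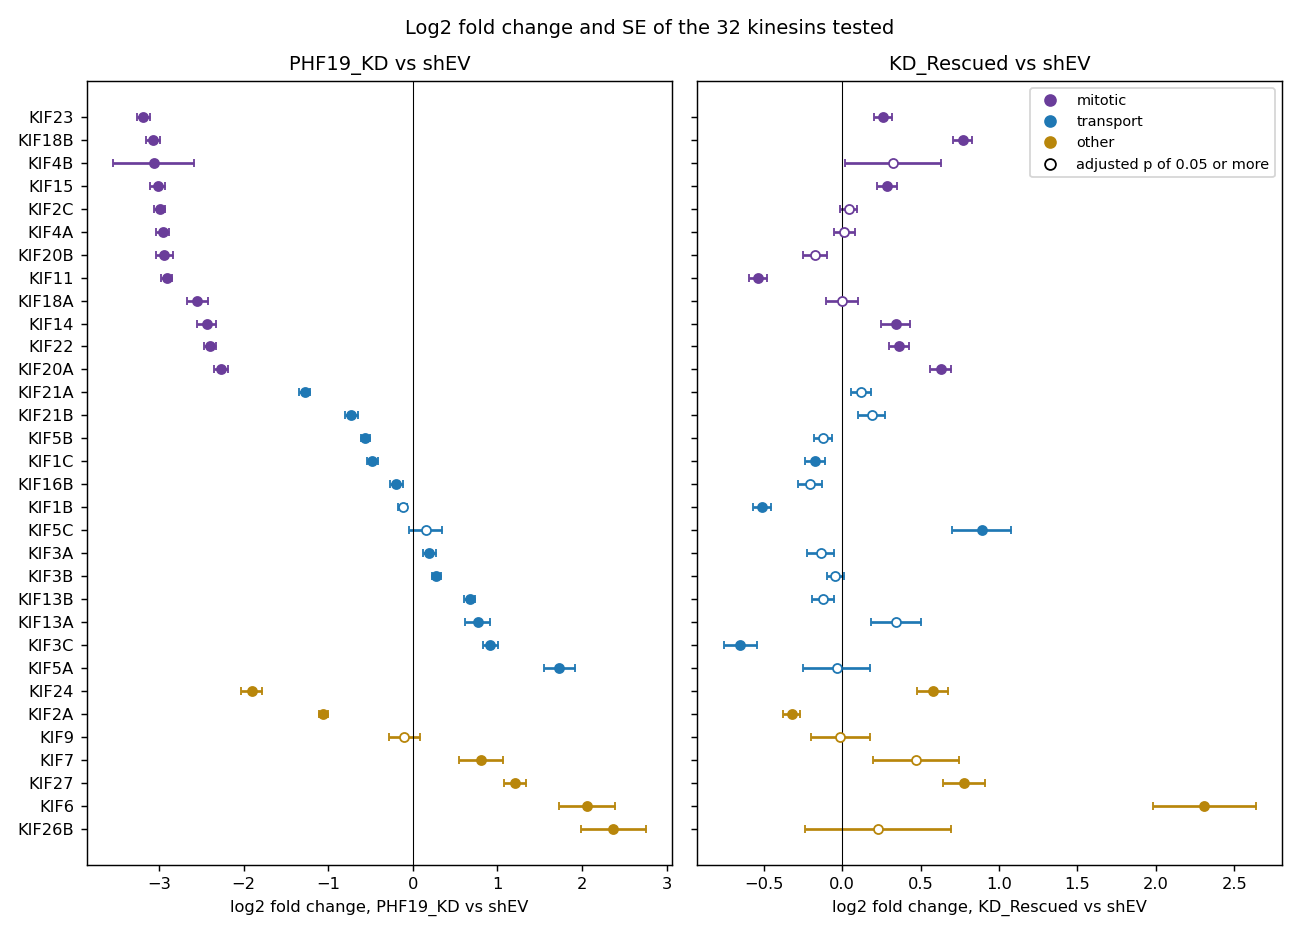
Log2 fold change with SE of the 32 kinesins tested, for PHF19_KD against shEV (left) and KD_Rescued against shEV (right), coloured by class, with open circles where the adjusted p was 0.05 or more. On the left all 12 mitotic kinesins lie between -3.19 and -2.27 while transport kinesins run from -1.28 to 1.73, and on the right the mitotic kinesins lie between -0.54 and 0.77.

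The order of kinesin RNA levels changed with the class. Per kb of the longest coding transcript in GENCODE 29, KIF22 and KIF11 led in shEV with 42.5 ± 3.19 and 38.8 ± 2.46 CPM per kb. They were followed by KIF2C with 28.6 ± 0.321 and KIF2A with 26.5 ± 1.34 CPM per kb (SD, n = 3). The means of KIF22 and KIF11 differed by more than either SD, but KIF11 was the higher in shEV replicate 3, so their order is not settled. In PHF19_KD the first were KIF21B, KIF3B, KIF5B and KIF2A with 13.9 ± 0.711, 13.1 ± 0.423, 13.1 ± 0.397 and 12.7 ± 0.372 CPM per kb. The mean of KIF21B stood above that of KIF3B by more than either SD, but KIF3B was the higher in PHF19_KD replicate 3. KIF3B, KIF5B and KIF2A differed from their neighbours among these 3 by no more than an SD. KIF22 came next in PHF19_KD with 8.03 ± 0.397 CPM per kb (SD, n = 3). KD_Rescued had KIF22 first again with 54.6 ± 1.02 CPM per kb, then KIF2C with 29.5 ± 0.340 and KIF11 with 26.7 ± 0.136 CPM per kb (SD, n = 2). These lengths come from an annotation other than the authors', which is not given in the sources used here.

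The second comparison, KD_Rescued against PHF19_KD, asked what the return of PHF19 changed. All 12 mitotic kinesins rose, each by at least 2-fold, with a median log2 fold change of 2.94, where 33.9% of all genes rose, 10.5% rose at least 2-fold and the median over all genes was 0.03. Their range ran from 2.37 ± 0.07 for KIF11 to 3.84 ± 0.08 for KIF18B (SE, adjusted p = 3.96e-11 and 6.39e-12). The mitotic sum was 855 and 859 CPM in KD_Rescued. Of the 13 transport kinesins 5 rose and 7 fell, where 29.5% of all genes fell, with a median of -0.32. KIF21A and KIF21B changed by 1.40 ± 0.07 and 0.91 ± 0.09, and KIF5A and KIF3C by -1.77 ± 0.20 and -1.57 ± 0.11 (SE, adjusted p = 8.38e-09, 5.50e-06, 9.66e-06 and 8.50e-08). Among the others KIF24 and KIF2A rose, by 2.48 ± 0.13 and 0.74 ± 0.06, KIF26B and KIF27 fell, at -2.14 ± 0.41 and -0.43 ± 0.13, and KIF6 was not called at 0.25 ± 0.29 (SE, adjusted p = 6.76e-09, 4.51e-07, 6.92e-04, 0.0117 and 0.473 in that order). The calls of KIF3A, KIF5C and KIF27 were lost without KD_Rescued replicate 1 (adjusted p = 0.107, 0.0716 and 0.125). That of KIF13A was lost without that library (adjusted p = 0.153), without KD_Rescued replicate 2, and without PHF19_KD replicate 1 or 3 (adjusted p = 0.0956, 0.0746 and 0.0685). This comparison and the first share the PHF19_KD libraries, and KD_Rescued against shEV shares libraries with both.

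KD_Rescued against shEV asked how far the rescued cells, with PHF19 at 188% of the shEV mean, matched the control. Here the mitotic kinesins were not uniform. Of 12, 6 were higher, 1 was lower and 5 were not called, where 20.7% of all genes were higher and 19.1% lower, and the median was 0.27 against 0.02 over all genes. KIF11 was the lower one, at 68.8% of the shEV mean and -0.54 ± 0.06 on the log2 scale (SE, adjusted p = 3.02e-05). KIF18B reached 171% and KIF20A 154% of the shEV mean, at 0.77 ± 0.06 and 0.63 ± 0.07 (SE, adjusted p = 3.32e-06 and 2.41e-05). KIF22 was at 0.36 ± 0.06 (SE, adjusted p = 7.89e-04). These 4 calls held under all 16 alternatives run, 8 of them with 1 library left out. KIF14, KIF15 and KIF23 were called at 0.34 ± 0.09, 0.29 ± 0.06 and 0.26 ± 0.06 (SE, adjusted p = 0.0134, 0.00424 and 0.00355). Without KD_Rescued replicate 1 the calls of KIF14 and KIF15 were lost (adjusted p = 0.0935 and 0.0706), and without KD_Rescued replicate 2 those of KIF14 and KIF23 (adjusted p = 0.0731 and 0.0544). DESeq2 did not call KIF15 or KIF23 (adjusted p = 0.0747 and 0.0722). KIF2C, KIF4A, KIF4B, KIF18A and KIF20B were not called, and KIF20B was called as lower without shEV replicate 2 (-0.23, adjusted p = 0.0466).

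Among transport kinesins in this comparison, 3 were lower, 1 was higher and 9 were not called, with a median of -0.12. KIF3C, which had risen in PHF19_KD, was at 63.9% of the shEV mean (-0.65 ± 0.11, SE, adjusted p = 5.10e-04), with 9.97 and 11.3 CPM in KD_Rescued against 18.0, 17.2 and 14.7 CPM in shEV. KIF1B was at 47.0 and 47.9 CPM in KD_Rescued against 67.7, 67.1 and 68.2 CPM in shEV (-0.51 ± 0.06, SE, adjusted p = 3.90e-05). KIF5C was the higher one at 0.89 ± 0.19 (SE, adjusted p = 0.00285). KIF1C was called at -0.17 ± 0.06 (SE, adjusted p = 0.0454), which was lost when any single library other than KD_Rescued replicate 2 or shEV replicate 3 was left out (adjusted p from 0.0562 to 0.375). KIF13B and KIF21A were called without shEV replicate 3 (adjusted p = 0.0270 and 0.0467), KIF21B without shEV replicate 1 (adjusted p = 0.0400) and KIF5B without shEV replicate 2 (adjusted p = 0.0342). Of the other kinesins, KIF6, KIF24 and KIF27 were higher, at 2.31 ± 0.33, 0.58 ± 0.10 and 0.77 ± 0.13 (SE, adjusted p = 2.03e-04, 6.93e-04 and 7.89e-04), and KIF2A was lower, at -0.32 ± 0.06 (SE, adjusted p = 8.38e-04).

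**Figure D5:**
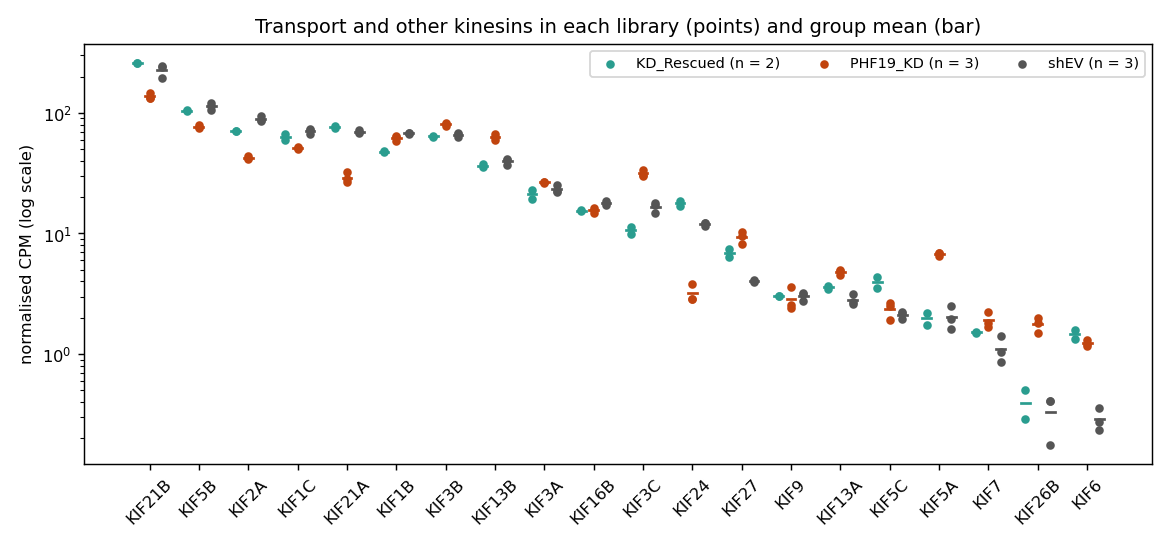
Normalised CPM (log scale) of the 13 transport and 7 other kinesins that passed the filter, with a point per library and a short bar at the group mean, ordered by level in shEV. PHF19_KD points lie under shEV for KIF21B, KIF5B, KIF2A, KIF21A and KIF24 and above it for KIF3C, KIF5A, KIF27 and KIF6, and the KD_Rescued points of KIF6 stay near those of PHF19_KD.

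Kinesins named outside the KIF number series and their partners were read from lists of related genes. CENPE, the kinetochore motor, and KIFC1, which focuses spindle poles, changed by -2.20 ± 0.11 and -2.93 ± 0.07 in PHF19_KD against shEV (SE, adjusted p = 1.59e-08 and 1.06e-11). KIFC3, a minus-end motor of cell junctions, averaged 15.8 ± 0.773 CPM in KD_Rescued (SD, n = 2), 15.2 ± 0.872 CPM in PHF19_KD and 2.77 ± 0.853 CPM in shEV (SD, n = 3 each). KIFC2, a motor known from neurons, had 52.1 and 52.6 CPM in the KD_Rescued libraries, 37.3, 38.8 and 35.1 CPM in PHF19_KD and 14.3, 11.8 and 12.0 CPM in shEV. Both rose in PHF19_KD and were also higher in KD_Rescued than in shEV, KIFC3 by 2.49 ± 0.16 and KIFC2 by 2.04 ± 0.08 on the log2 scale (SE, adjusted p = 8.20e-07 and 3.06e-08). Of 22 spindle and midzone partners, 21 fell in PHF19_KD and 0 rose, where 34.2% of all genes fell. Their median was -2.57, and those called ran from -3.36 ± 0.08 for GTSE1, which stabilises spindle microtubules, to -0.82 ± 0.04 for the microtubule polymerase CKAP5 (SE, adjusted p = 6.80e-12 and 3.82e-09), and all 22 rose in KD_Rescued against PHF19_KD, where 33.9% of all genes rose. NUMA1, which anchors dynein at spindle poles, was not called, at -0.08 ± 0.06 (SE, adjusted p = 0.251).

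Among cargo adaptors and light chains of transport kinesins, 12 of 19 were higher, 4 were lower and 3 were not called in PHF19_KD against shEV, with a median of 0.31, where 34.9% of all genes were higher and 34.2% lower. FEZ1, an adaptor of conventional kinesin, changed by 2.32 ± 0.18 and KIAA1279, the KIF-binding protein gene, by -0.63 ± 0.07 (SE, adjusted p = 1.84e-07 and 7.38e-06), while PLEKHM2, which links lysosomes to kinesin, was not called at 0.22 ± 0.10 (SE, adjusted p = 0.0885). Dynein and dynactin genes, the motor of the opposite direction, numbered 28, of which 8 rose and 11 fell (median 0.02), near the shares of 34.9% and 34.2% over all genes. HOOK1, a dynein adaptor, was at -1.13 ± 0.08 and the light chain gene DYNLRB2 at 3.50 ± 0.55 (SE, adjusted p = 1.53e-07 and 1.16e-04), and PAFAH1B1, a dynein regulator and the gene of that list with the highest mean CPM over all 8 libraries (DYNC1H1 was higher in PHF19_KD), was at -0.29 ± 0.04 (SE, adjusted p = 7.29e-05). DYNLRB2 held only 1, 2 and 1 counts in the shEV libraries and 8, 13 and 8 in PHF19_KD, so the size of its change is uncertain. Tubulin genes, the track itself, were lower for 8 of 13 members and higher for 2 (median -0.95), beside 34.2% lower and 34.9% higher over all genes. TUBA1B changed by -2.89 ± 0.06 and TUBB4A by 2.09 ± 0.09 (SE, adjusted p = 3.21e-12 and 1.54e-09), although tubulin genes are near-identical and may share reads.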

How the data were processed

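RNA of MM1S cells was sequenced from TruSeq libraries, per the labels' protocols, and the submitters' processing notes name CASAVA, RSEM and the hg19 build, without versions. The deposited table is named as a salmon gene summary, a program absent from those notes, so which program made the counts is not settled. The deposited table holds the authors' estimated counts per gene symbol, which were rounded to whole numbers here; 15.6% to 19.4% of values per library were not whole within 0.01. Strand setting and annotation were not given in the sources used here. The 8 libraries of KD_Rescued, PHF19_KD and shEV were fitted together by group with edgeR 4.0.16 (R 4.3.3; low-count filter by group, TMM scaling, robust quasi-likelihood test), and p-values were Benjamini-Hochberg adjusted over all 16600 genes, with 0.05 as the threshold. The SE of a log2 fold change was derived from the F statistic. Levels are TMM-normalised CPM. The test was checked on simulated counts in which few genes changed. That check does not cover shifts as broad as those found here, or replicates that may be technical. Alternatives used limma 3.58.1, DESeq2 1.42.0, other scalings and filters, a replicate block, other class assignments and each library left out.

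The library with contradictory labels, titled as a knockdown but labelled with shRNA-resistant PHF19, was in no fit. Class sums and medians carry no test. Every kinesin could be named; values per library were given for mitotic members, for others called with a log2 change of at least 1 and for the 2 most abundant of each class, with a few more added after their values were seen. Partner lists were represented by their lowest, highest and most abundant members. Members and lists were chosen with earlier results of these data known. Promoters came from RefSeq (GRCh38.p14), and lengths and overlaps from GENCODE 29, matched by symbol. Total counts limit precision most for genes near the filter.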

Additional observations from a re-analysis of the deposited data

Results flagged for a closer look

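The library whose title and shRNA label contradict each other gave levels of 3 kinesins above 2 times the highest shEV library. KIF5C was at 4.512 CPM, KIF6 at 3.63 CPM and KIF26B at 2.06 CPM there. In the groups, KIF6 was between 1.33 and 1.58 CPM in KD_Rescued, between 1.16 and 1.30 CPM in PHF19_KD and between 0.236 and 0.354 CPM in shEV. KIF5C was at 4.32 and 3.54 CPM in KD_Rescued, between 1.91 and 2.64 CPM in PHF19_KD and between 1.97 and 2.21 CPM in shEV. KIF26B was at 0.291 and 0.500 CPM in KD_Rescued, between 1.49 and 1.98 CPM in PHF19_KD and between 0.177 and 0.406 CPM in shEV. All 3 values were thus above every library of the groups, with KIF5C close to KD_Rescued, KIF26B close to PHF19_KD and KIF6 close to none. They do not assign the library to a group. This library was in no comparison, and the source of the values was not tested.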

How the results depend on the processing

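Of 1515 gene-level values under alternatives, 1422 kept direction and side of the threshold, 47 lost a call, 17 gained one, and 29 changed sign without being called under either setting. Each of the 12 mitotic kinesins fell in PHF19_KD against shEV and rose in KD_Rescued against PHF19_KD in every alternative that tested it, which was all 16 except for KIF4B, with no value under the filter at 5 CPM. Upper-quartile scaling moved the median over all genes from 0.03 to 0.19 in PHF19_KD against shEV and from 0.03 to -0.12 in KD_Rescued against PHF19_KD, with higher genes making up 60.6% instead of 50.5% of calls in the first and 42.1% instead of 53.4% in the second. The causes below were not tested unless the alternative itself removes or reassigns genes or samples.

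Medians for mitotic, transport and other kinesins in PHF19_KD against shEV were -2.79, 0.30 and 0.96 with upper-quartile scaling, -3.04, -0.21 and 0.92 without a filter, and -2.84, -0.025 and -0.96 with a filter at 5 CPM, where 1 other kinesin was higher. In KD_Rescued against PHF19_KD they were 2.78, -0.48 and -0.066 with upper-quartile scaling; the other median was -0.082 without a filter, and the mitotic and other medians were 2.82 and 0.66 at 5 CPM, with 1 other kinesin lower. In KD_Rescued against shEV, 2 mitotic and 5 transport kinesins were lower with RLE scaling and without a filter, and the other median was 0.18 without a filter, 0.60 at 5 CPM and 0.57 with the replicate block. DESeq2 called 2231 genes higher and 3049 lower there, RLE scaling 3006 and 3866, and no filter 3277 and 4112. These numbers were 3140 and 3583 without the mitochondrially encoded genes, and 3714 and 3825 without shEV replicate 3. In each of these settings more genes were lower than higher, unlike the 3436 higher and 3163 lower reported.

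With KIF2A counted as mitotic, 1 other kinesin was lower in PHF19_KD against shEV (median 1.01), 1 was higher in KD_Rescued against PHF19_KD (median -0.12), and 2 mitotic and 0 other kinesins were lower in KD_Rescued against shEV. With KIF21A and KIF21B counted as other, 3 transport and 4 other kinesins were lower in PHF19_KD against shEV (other median -0.10), 3 and 4 were higher in KD_Rescued against PHF19_KD (0.25), and the other median was 0.23 in KD_Rescued against shEV.

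Leaving out 1 library gave transport medians of 0.057 to 0.19 and other medians of 0.66 to 1.00 in PHF19_KD against shEV. In KD_Rescued against PHF19_KD it gave transport medians of -0.34 to -0.22, other medians of -0.026 to 0.27 and 1 to 2 other kinesins lower. In KD_Rescued against shEV it gave 2168 to 3714 genes higher, 1880 to 3825 lower, transport medians of -0.17 to -0.040, other medians of 0.37 to 0.59, 1 to 2 mitotic kinesins lower and 1 to 2 transport kinesins higher; the gene counts were lowest without KD_Rescued replicate 2, which leaves 1 library assumed to vary like the other groups.

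Same-numbered libraries of PHF19_KD and shEV deviated together with correlations of 0.00702, 0.0114 and 0.0256, so the numbers were not taken to pair the samples. The replicate block gave 5814 genes higher and 5723 lower in PHF19_KD against shEV, and among kinesins it ended the call of KIF13A in KD_Rescued against PHF19_KD (adjusted p = 0.0630). Among the kinesins tested, depth limits KIF4B, KIF6, KIF7 and KIF26B most.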

Other observations

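In the library with contradictory labels, PHF19 was at 63.3 CPM, which is 54.3% of the shEV mean. All 12 mitotic kinesins tested lay between the PHF19_KD and shEV ranges, with a summed level of 337 CPM. The share of all genes tested that lay between these ranges was not computed, so whether the counts given here are particular to kinesins is not known. Of the 13 transport kinesins, 6 lay between those ranges, 5 above both and 2 within one of them, with a summed level of 706 CPM. Of the 7 other kinesins, 3 lay between, 3 above both and 1 within a range. The mitotic to transport ratio was 0.477 in this library.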
